A study of Mus musculus with 32 samples.

Results

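In control mice, RNA of the gastrocnemius, the large calf muscle, rich in fast-twitch fibres, was compared between Zeitgeber time (ZT) 0 and ZT12. Zeitgeber time counts the hours from lights on. ZT12 is lights off where the light phase lasts 12 h, a schedule that the sources used here do not state. The comparison holds the 4 control libraries of ZT0 and the 4 of ZT12, 8 of the 32 libraries of the series, chosen by the genotype and the time in the names of the data columns. Per the labels, the mice were 10 weeks old and of mixed genetic background. The labels name the genotype only as control, and the series description gives these mice floxed Sirt1 alleles (Sirt1loxP/loxP) without Cre, so they are not wild type at Sirt1. The mutants, set beside the controls at the end, carry Sf1-Cre with the same floxed alleles. That cross directs the loss of SIRT1, an NAD-dependent deacetylase, to neurons that express SF1. SF1 is also made in the adrenal cortex, the gonads and the pituitary, and the site of the deletion cannot be read from muscle RNA. RNA abundance is given as FPKM, mapped fragments scaled by transcript length and library size. Of 16634 genes in the table, 11344 were tested on the log2(FPKM + 1) scale. They had at least 1 FPKM in 4 or more of the 8 libraries and at least 2 values at each time.

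The circadian clock of muscle cells is a feedback loop of transcription factors. The dimer of CLOCK and BMAL1 (the product of Arntl) binds E-box elements and switches on the genes of its own repressors, the PER and CRY proteins and CIART. It also switches on the nuclear receptors REV-ERBα and REV-ERBβ (Nr1d1 and Nr1d2), which repress Arntl, Nfil3 and Cry1, and output factors such as DBP. In muscle the clock is known to drive daily rhythms of Myod1, of glucose uptake and of lipid use, and feeding, activity and body temperature act on the tissue as well.

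The libraries were those of skeletal muscle, with Ckm, the muscle creatine kinase, between 15672 and 21598 FPKM. An exact 0 is listed for Acta1, which encodes skeletal actin, in 4 of the 8 libraries (the rest hold 19028 to 23915 FPKM) and for the fast calcium pump gene Atp2a1 in 5. Such zeros of abundant genes were treated as missing, which touched 12 tested genes. Relative depth, read from the steps of low values, was 0.854 to 1.30 at ZT0 and 0.841 to 1.15 at ZT12, and absolute depth is unknown. Genes of B and T lymphocytes were high in 2 libraries of each time, numbers 1 and 2 of ZT0 and 1 and 3 of ZT12. Their summed level was 62.4 to 126.7 FPKM there and 3.33 to 4.03 FPKM in the other 4 libraries. That contrast followed the first principal component (33.1% of the variance), and the second (27.2%) separated the times. Sequencing used 4 pools, with no map from samples to pools in the sources used here. An effect of the pool or of the harvest day cannot be told apart from time if each time had its own. Nothing in the labels says that each sample is a different mouse, so p-values measure the spread between these libraries.

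Between ZT0 and ZT12, 692 of the 11344 tested genes (6.1%) differed in control muscle at an adjusted p under 0.05 (limma, a linear model with variances moderated across genes, and Benjamini-Hochberg adjustment). Of these, 108 (0.952% of tested genes) rose from ZT0 to ZT12 and 584 (5.15%) fell. Clock genes and Gadd45g stood among the largest rises, and the retinoic acid hydroxylase gene Cyp26b1, the lipolysis inhibitor gene G0s2 and the myogenic factor gene Myod1 among the largest falls. Most differences were small: the median size among genes that passed was 0.43 log2 units upward and -0.48 downward. Only 37 genes that passed differed by more than 1 log2 unit, 8 upward and 29 downward. Values of the 4 ZT0 libraries and the 4 ZT12 libraries did not overlap in 1823 genes (16.1%), of which 469 (4.13%) were higher and 1354 (11.9%) lower at ZT12. Over all tested genes the median difference was -0.0485 log2 units, and 39.3% were higher at ZT12. The share of falls among the genes that passed depended on the scaling between libraries. It was 84.4% on the values as deposited, 59.5% after quantile normalisation (214 rises and 315 falls) and 62.3% after median-ratio scaling (196 rises and 324 falls). The direction of each named gene that passed was the same under both scalings.

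**Figure D1:**
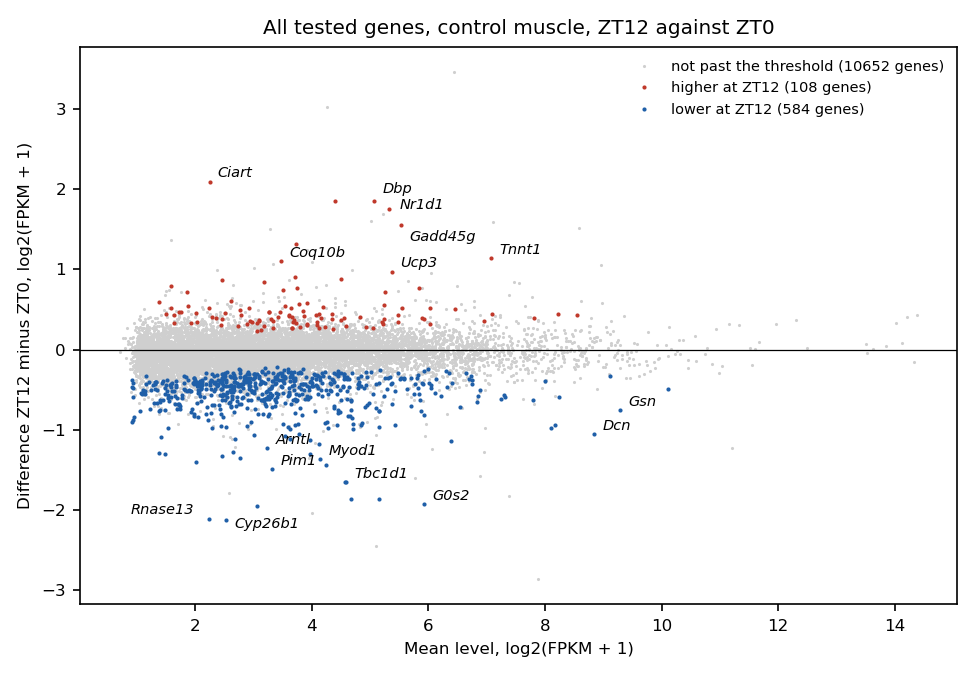
Difference between ZT12 and ZT0 in log2(FPKM + 1) units (y axis) against log2 of the mean FPKM + 1 (x axis), 1 point for each of the 11344 genes tested in 8 control libraries. Red points are the 108 genes past the threshold that rose, blue points the 584 that fell, and grey points did not pass. Ciart, Dbp and Nr1d1 are among the highest red points, and most blue points lie within 1 unit of 0.

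Of the 28 clock genes listed, 25 were tested, and 8 of them passed, against 6.1% of all tested genes. Of these 8, 5 rose (Ciart, Dbp, Nr1d1, Per1 and Nr1d2), against 0.952% of all tested genes. The other 3 (Nfil3, Arntl and Cry1) fell, against 5.15%. Ciart entered the test only through its ZT12 libraries, which alone reached 1 FPKM, so its rise adds no support to these counts. The clock genes not tested, Npas2, Rorb and Fbxl21, stayed below 1 FPKM in every library. The promoters of 4 of the 8 are printed because the E-box, the element that the CLOCK and BMAL1 dimer binds, is found in 3 of them. Each is the 250 bases before the RefSeq start site, 5′ to 3′ in the direction of transcription, in build GRCm38.p6 (the same coordinates as mm10), with each E-box (CACGTG) in capitals. The Ciart sequence is chr3:95882229-95882478 on the minus strand, that of Per1 chr11:69098699-69098948 on the plus strand, that of Cry1 chr10:85185055-85185304 on the minus strand and that of Dbp chr7:45704997-45705246 on the plus strand.
Ciart: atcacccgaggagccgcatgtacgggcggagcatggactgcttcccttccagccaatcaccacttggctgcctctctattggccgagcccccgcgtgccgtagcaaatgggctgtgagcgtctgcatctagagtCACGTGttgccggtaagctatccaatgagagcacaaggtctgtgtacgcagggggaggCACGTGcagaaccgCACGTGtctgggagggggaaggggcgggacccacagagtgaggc
Per1: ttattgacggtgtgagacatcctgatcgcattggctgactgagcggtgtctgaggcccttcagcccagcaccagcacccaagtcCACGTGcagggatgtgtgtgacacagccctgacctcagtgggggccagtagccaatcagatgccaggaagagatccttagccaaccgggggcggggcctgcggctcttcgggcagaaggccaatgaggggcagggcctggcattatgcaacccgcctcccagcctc
Cry1: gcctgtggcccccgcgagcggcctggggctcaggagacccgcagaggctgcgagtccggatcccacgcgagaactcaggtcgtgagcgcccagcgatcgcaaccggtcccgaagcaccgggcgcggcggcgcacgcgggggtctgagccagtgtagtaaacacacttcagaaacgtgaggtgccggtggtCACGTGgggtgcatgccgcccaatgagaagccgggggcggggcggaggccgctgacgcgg
Dbp: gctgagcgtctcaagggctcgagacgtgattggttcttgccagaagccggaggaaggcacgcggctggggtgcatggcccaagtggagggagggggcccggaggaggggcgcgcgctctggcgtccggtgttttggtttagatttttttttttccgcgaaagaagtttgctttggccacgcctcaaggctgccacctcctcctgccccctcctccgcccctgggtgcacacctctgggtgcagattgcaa
With the start site counted as 0, the E-boxes begin at -116, -58 and -44 in Ciart, at -166 in Per1 and at -60 in Cry1. The search covered the 300 bases from 250 before to 50 after each start, on both strands. The other motifs searched were the D-box (TTATGTAA or TTACGTAA), the cyclic AMP response element (TGACGTCA) and the ROR response element. The last was searched as A or T, A, A or T, any base, T, A or G, then GGTCA. Only exact matches were counted, so near matches and sites outside the window would be missed. No exact match to any of these 4 motifs was found in that window of Dbp, Nr1d1, Nfil3, Arntl or Nr1d2. Among all 32851 RefSeq promoters of this length, 7.15% hold the E-box, 1.06% the D-box, 1.79% the cyclic AMP response element and 0.384% the ROR response element. The Ciart start site lies 9702 bases inside the table's longer entry for this gene, and Cry1 was added to the printed set after its match was seen.

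Of the activators of the loop, Arntl fell and Clock did not pass. Arntl (XLOC_019094, chr7:113207465-113314126), which encodes BMAL1, was at 9.37, 13.5, 11.2 and 14.4 FPKM in ZT0 libraries 0 to 3 and at 5.09, 2.88, 5.02 and 5.59 FPKM in ZT12 libraries 0 to 3. Every ZT0 library lay above every ZT12 library. The mean fell 2.61-fold, from 12.1 ± 2.28 to 4.65 ± 1.20 FPKM (SD, n = 4 each), a log2 difference of -1.23 (SE 0.183, limma adjusted p = 0.0102). Clock, the partner of BMAL1, was at 7.47 ± 0.744 FPKM at ZT0 and 6.38 ± 0.789 FPKM at ZT12 (SD, n = 4 each, limma adjusted p = 0.245). The table's entry for Clock spans 285640 bases and covers 3 other protein-coding genes of RefSeq, whose part in its value was not tested.

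Among the 6 repressors, Ciart and Per1 rose and Cry1 fell. Ciart (XLOC_013952, chr3:95871522-95891930), which encodes a repressor of CLOCK and BMAL1, was at 0.671, 0.840, 0.462 and 0.741 FPKM at ZT0 and 7.91, 10.2, 6.73 and 2.35 FPKM at ZT12. All ZT0 libraries were under 1 FPKM and all ZT12 libraries above 2 FPKM, with library 3 the lowest of ZT12. The difference was 2.09 log2 units (SE 0.320, limma adjusted p = 0.0113), and the ratio of mean FPKM was 10.0. Per1 (XLOC_002800, chr11:69098956-69109957), a period gene that also responds to light and glucocorticoids, was at 4.98, 9.22, 4.52 and 7.24 FPKM at ZT0 and 19.2, 25.4, 17.0 and 10.1 FPKM at ZT12. The groups came close to each other: the lowest ZT12 library, number 3, lay just above the highest ZT0 library. The mean rose 2.76-fold, a log2 difference of 1.31 (SE 0.276, limma adjusted p = 0.0314), and Per1 passed in only 2 of the 8 fits that left out 1 library. Cry1 (XLOC_002248, chr10:85131700-85185054), a cryptochrome gene, was at 7.46, 8.11, 8.45 and 12.4 FPKM at ZT0 and 4.55, 5.32, 4.42 and 3.18 FPKM at ZT12, without overlap. Its mean fell 2.09-fold (log2 difference -0.91, SE 0.166, limma adjusted p = 0.0208).

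The other 3 repressor genes did not pass. Per3 was at 4.70, 4.93, 4.09 and 4.04 FPKM at ZT0 and 8.61, 8.69, 6.68 and 4.61 FPKM at ZT12 (limma adjusted p = 0.0854). For Per3, ZT12 library 3 lay within the ZT0 range and the other 3 ZT12 libraries above it. Per2 was at 3.67, 4.71, 1.98 and 3.51 FPKM at ZT0 and 5.20, 7.77, 4.83 and 1.94 FPKM at ZT12, and the groups overlapped (limma adjusted p = 0.564). Cry2 was at 15.97 ± 3.04 FPKM at ZT0 and 13.8 ± 3.12 FPKM at ZT12 (SD, n = 4 each, limma adjusted p = 0.553). Library 3 of ZT12 was the lowest of its group for Ciart, Per1, Per2, Per3, Cry1 and Cry2 alike, and it is the library with the highest lymphocyte level.

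Both REV-ERB genes rose. Nr1d1 (XLOC_003970, chr11:98767932-98775377), which encodes REV-ERBα, was at 14.2, 13.0, 24.5 and 18.1 FPKM at ZT0 and 62.1, 44.4, 57.7 and 77.5 FPKM at ZT12. The lowest ZT12 library was well above the highest ZT0 library. The mean rose 3.46-fold, from 17.5 ± 5.17 to 60.4 ± 13.7 FPKM (SD, n = 4 each), with a log2 difference of 1.75 (SE 0.212, limma adjusted p = 0.00474). Nr1d2 (XLOC_006462, chr14:18204056-18239106), which encodes REV-ERBβ, was at 33.6, 27.7, 24.3 and 26.2 FPKM at ZT0 and 48.8, 51.8, 48.2 and 37.1 FPKM at ZT12. Its rise was smaller, 1.66-fold (log2 difference 0.71, SE 0.126, limma adjusted p = 0.0186), and Nr1d2 passed in 5 of the 8 fits that left out 1 library. Rora, a receptor that activates the same elements, was at 20.3 ± 1.15 FPKM at ZT0 and 16.8 ± 1.97 FPKM at ZT12 (SD, n = 4 each, limma adjusted p = 0.110).

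Of the 6 output factors, Dbp rose, its antagonist Nfil3 fell, and the other 4 did not pass. Dbp (XLOC_018759, chr7:45705247-45718002), a transcription factor of the PAR bZIP family that binds D-boxes, was at 15.97, 11.8, 14.0 and 12.1 FPKM at ZT0 and 58.0, 64.8, 44.9 and 39.0 FPKM at ZT12. Each ZT12 library held more than the highest ZT0 library by a wide margin. The mean rose 3.84-fold, from 13.5 ± 1.94 to 51.7 ± 11.8 FPKM (SD, n = 4 each), a log2 difference of 1.85 (SE 0.162, limma adjusted p = 0.00227). The table's entry for Dbp covers 1 other protein-coding gene of RefSeq. Nfil3 (XLOC_005738, chr13:52967209-52981039), which encodes the repressor E4BP4 of the same elements, was at 15.2, 38.4, 20.1 and 34.2 FPKM at ZT0 and 6.65, 12.5, 9.72 and 6.92 FPKM at ZT12. The ZT0 libraries were widely spread, and the lowest of them lay above the highest ZT12 library. Its mean fell 3.02-fold (log2 difference -1.44, SE 0.296, limma adjusted p = 0.0299). Nfil3 passed in 4 of the 8 fits that left out 1 library, and it did not pass with no filter on low values. The adjusted p was 0.612 for Hlf, 0.745 for Tef, 0.278 for Bhlhe40 and 0.203 for Bhlhe41, and the log2 differences of these 4 lay between -0.24 and 0.27.

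None of the 7 tested kinases and turnover factors of the clock passed. Usp2, a deubiquitinase with a daily rhythm in many tissues, was at 30.3, 35.1, 30.4 and 37.0 FPKM at ZT0 and 37.1, 53.9, 38.9 and 37.2 FPKM at ZT12 (limma adjusted p = 0.187). The casein kinase genes Csnk1e, Csnk1d and Csnk2a1 had log2 differences of -0.28, -0.09 and 0.05, Gsk3b of -0.24 and Btrc of -0.01.

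At the other times of day the 8 clock genes that passed fell into different courses, given here as control means with SD over 4 libraries each and with no test. Ciart was at 0.440 ± 0.0929 FPKM at ZT6 and 5.18 ± 2.66 FPKM at ZT18. Per1 (4.43 ± 2.15 and 20.9 ± 7.07 FPKM) and Dbp (9.13 ± 2.11 and 62.8 ± 33.3 FPKM) were likewise low at ZT6 and high at ZT18. Nr1d1 was high already at ZT6, at 51.4 ± 7.73 FPKM, and stood at 29.4 ± 8.03 FPKM at ZT18. Arntl was at 15.2 ± 1.52 FPKM at ZT6 and 3.75 ± 3.55 FPKM at ZT18, where 1 library at 8.85 FPKM stood apart from 3 between 1.08 and 3.53 FPKM. Nr1d2 stood near its ZT0 level at ZT6 (28.4 ± 2.48 FPKM) and near its ZT12 level at ZT18 (51.0 ± 7.80 FPKM). Cry1 was at 8.79 ± 1.39 and 6.71 ± 0.885 FPKM, and Nfil3 at 18.5 ± 5.26 and 15.0 ± 4.21 FPKM, so both had their lowest mean at ZT12.

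**Figure D2:**
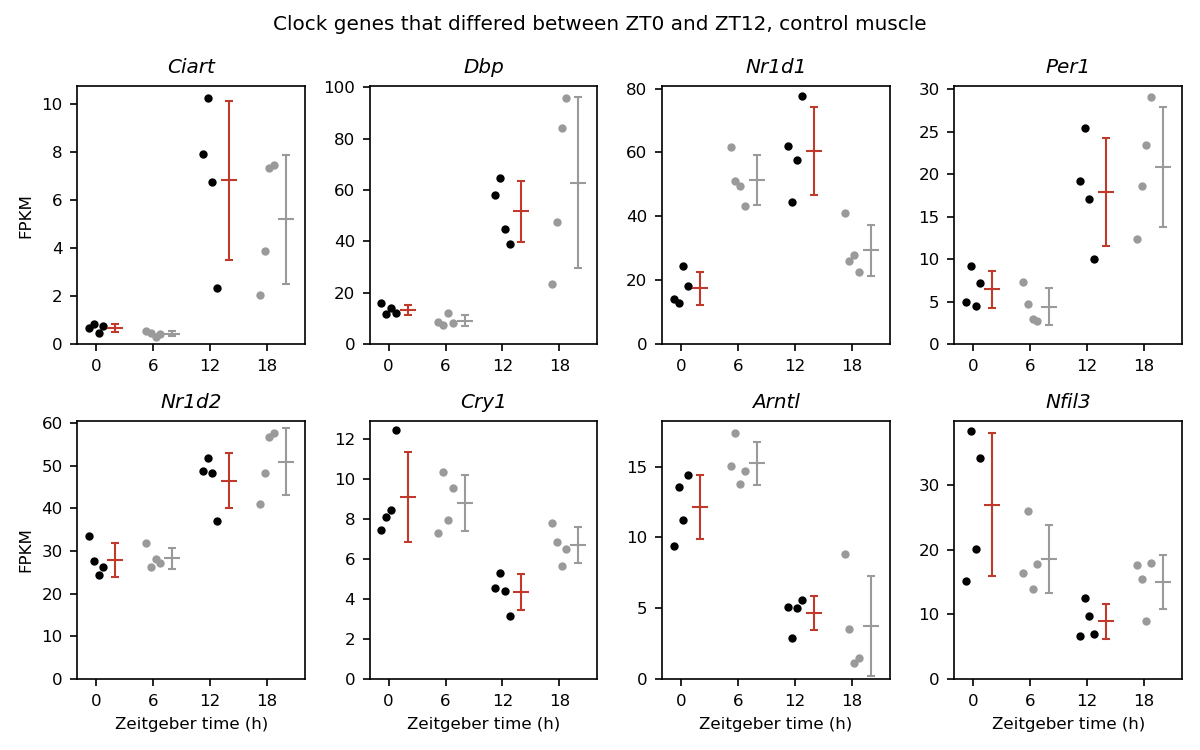
FPKM (y axis, from 0) of the 8 clock genes past the threshold against Zeitgeber time in hours (x axis) in control muscle. Points are single libraries, black at the compared times ZT0 and ZT12 and grey at ZT6 and ZT18; horizontal marks with bars, red and grey, are the mean and SD of 4 libraries. In all 8 panels the black points at ZT0 and ZT12 do not overlap, which held for 16.1% of all tested genes.

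Outside the clock lists, the largest rises that met the naming rule were those of Gadd45g, Tnnt1, Coq10b and Ucp3. Gadd45g (XLOC_005301, chr13:51846675-51848474), which encodes a growth arrest and DNA damage protein, was at 19.1, 24.5, 16.9 and 21.4 FPKM at ZT0 and 84.5, 114, 50.3 and 29.2 FPKM at ZT12. The ZT12 libraries were widely spread, and the lowest, number 3, still lay above all of ZT0. The log2 difference was 1.55 (SE 0.359, limma adjusted p = 0.0394), and Gadd45g passed in only 1 of the 8 fits without 1 library. Coq10b (XLOC_000120, chr1:55052770-55072702), whose product binds coenzyme Q in mitochondria, was at 6.99, 5.59, 5.47 and 5.83 FPKM at ZT0 and 14.1, 16.5, 15.6 and 10.5 FPKM at ZT12. Its groups were well apart, with a 2.37-fold rise (log2 difference 1.11, SE 0.133, limma adjusted p = 0.00471). Ucp3 (XLOC_018944, chr7:100472991-100486432), the uncoupling protein of muscle mitochondria that rises in fasting, was at 36.2, 21.4, 33.9 and 18.4 FPKM at ZT0 and 37.2, 53.4, 64.5 and 60.3 FPKM at ZT12. The groups nearly met, and Ucp3 passed narrowly (log2 difference 0.97, SE 0.241, limma adjusted p = 0.0485); it passed in 1 of the 8 fits without 1 library and not after quantile normalisation.

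The remaining rises in this group were between 0.57 and 0.91 log2 units, apart from Tnnt1, described with the fibre genes. Ube2t, a ubiquitin-conjugating enzyme of DNA crosslink repair, was at 3.52, 4.18, 3.36 and 4.34 FPKM at ZT0 and 6.24, 6.36, 6.28 and 6.43 FPKM at ZT12. The 4 ZT12 libraries were almost equal and all above ZT0, and the rise was 1.64-fold (SE 0.0792 log2 units, limma adjusted p = 0.00632). Leo1, a subunit of the PAF1 complex of transcription elongation, was at 11.0, 11.1, 11.2 and 11.1 FPKM at ZT0 and 17.2, 15.0, 19.1 and 17.3 FPKM at ZT12, a rise of 1.54-fold (limma adjusted p = 0.00584). Here it was the ZT0 group that was almost uniform, and Leo1 did not pass with all 32 libraries in the fit. Tln2, which encodes a talin that links integrins to actin, rose from 10.1 ± 0.888 to 15.5 ± 1.36 FPKM (SD, n = 4 each, limma adjusted p = 0.0101). Ccrn4l (Nocturnin), whose RNA is known to peak early in the night in many tissues, rose from 8.92 ± 2.03 to 15.8 ± 3.60 FPKM (SD, n = 4 each, limma adjusted p = 0.0432). Tiparp, a mono-ADP-ribosyltransferase induced by the aryl hydrocarbon receptor, rose 1.80-fold, Tceal5 1.94-fold, Plcd4, a phospholipase C, 1.70-fold and Myh6, a cardiac myosin heavy chain gene, 1.98-fold. The adjusted p of these 4 lay between 0.0249 and 0.0450, and the entry for Plcd4 covers 3 other protein-coding genes of RefSeq. Without 1 library, Ccrn4l, Tiparp and Myh6 each passed in 1 of 8 fits, Plcd4 in 2 and Tceal5 in 4.

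The largest falls outside the clock lists included those of Cyp26b1, Rnase13 and G0s2. Cyp26b1 (XLOC_017962, chr6:84571414-84593908), an enzyme that degrades retinoic acid, was at 14.3, 4.63, 2.60 and 13.3 FPKM at ZT0 and 0.747, 0.788, 1.27 and 0.736 FPKM at ZT12. ZT0 libraries 0 and 3 were far above 1 and 2, and all ZT12 libraries were lower than these. The log2 difference was -2.12 (SE 0.427, limma adjusted p = 0.0284), kept in 3 of 8 fits without 1 library. Rnase13 (XLOC_006631, chr14:51922160-51922773), of the ribonuclease A family, was at 6.76, 9.40, 4.70 and 5.86 FPKM at ZT0 and 0.796, 0.732, 1.41 and 0.233 FPKM at ZT12. No ZT12 library came near the lowest ZT0 library, and the mean fell 8.44-fold (log2 difference -2.10, SE 0.227, limma adjusted p = 0.00386). G0s2 (XLOC_001320, chr1:193272160-193273188), whose product inhibits adipose triglyceride lipase, was at 81.6, 77.9, 83.9 and 140.5 FPKM at ZT0 and 19.6, 24.3, 24.1 and 28.2 FPKM at ZT12. One ZT0 library, number 3, stood above the other 3, which were close together, and all 4 lay far above ZT12. G0s2 fell 3.99-fold (log2 difference -1.92, SE 0.188, limma adjusted p = 0.00367) and passed in all 8 fits without 1 library.

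Cyr61 (XLOC_014164, chr3:145646971-145649985), a secreted matrix protein induced by YAP signalling, was at 46.5, 47.0, 24.95 and 38.4 FPKM at ZT0 and 11.9, 10.6, 8.59 and 8.46 FPKM at ZT12. The groups were far apart, and the mean fell 3.96-fold (log2 difference -1.86, SE 0.197, limma adjusted p = 0.00367). Tbc1d1 (XLOC_015849, chr5:64160260-64351486), a Rab GTPase-activating protein that holds back the glucose transporter GLUT4, was at 32.9, 48.3, 24.0 and 36.8 FPKM at ZT0 and 11.5, 11.2, 13.3 and 6.39 FPKM at ZT12. Again no ZT12 library reached the ZT0 range, and the fall was 3.34-fold (log2 difference -1.65, SE 0.242, limma adjusted p = 0.00980). Its entry covers 1 other protein-coding gene of RefSeq. Slc16a9 (XLOC_001539, chr10:70245276-70285951), of the monocarboxylate transporter family, was at 6.24, 6.13, 6.99 and 7.90 FPKM at ZT0 and 1.68, 2.29, 2.55 and 1.99 FPKM at ZT12. Both groups were tight, and its adjusted p of 0.00227 was the smallest of all, shared with Ypel2, Psmb1 and Dbp among the named genes. The mean of Slc16a9 fell 3.20-fold, a log2 difference of -1.32 (SE 0.109).

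Ypel2, of the Yippee-like family, had the smallest p of all tested genes. It was at 8.15, 6.63, 8.31 and 8.41 FPKM at ZT0 and 2.95, 2.20, 3.02 and 2.50 FPKM at ZT12 and fell 2.95-fold (log2 difference -1.28, SE 0.101, limma adjusted p = 0.00227). The table's entry for Ypel2 spans 971959 bases and covers 11 other protein-coding genes of RefSeq, where the gene itself spans 57381 bases, and their part in the value was not tested. Pim1, a serine/threonine kinase, fell 3.29-fold (limma adjusted p = 0.00751) and Inmt, an N-methyltransferase of indoleamines, 3.59-fold (limma adjusted p = 0.0208). Tmem37, a calcium channel subunit homologue, fell 3.71-fold (limma adjusted p = 0.0220) and Prima1, which anchors acetylcholinesterase in the membrane, 3.40-fold (limma adjusted p = 0.0327). Pim1 passed in all 8 fits without 1 library, Inmt in 6, and Tmem37 and Prima1 in 3 each. Rpl36, a ribosomal protein gene, fell 5.56-fold (limma adjusted p = 0.0220), but its near-identical copies in the genome leave its level uncertain, and ZT0 library 2 at 4.29 FPKM lay far below the other 3 (13.7 to 17.4 FPKM).

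**Figure D3:**
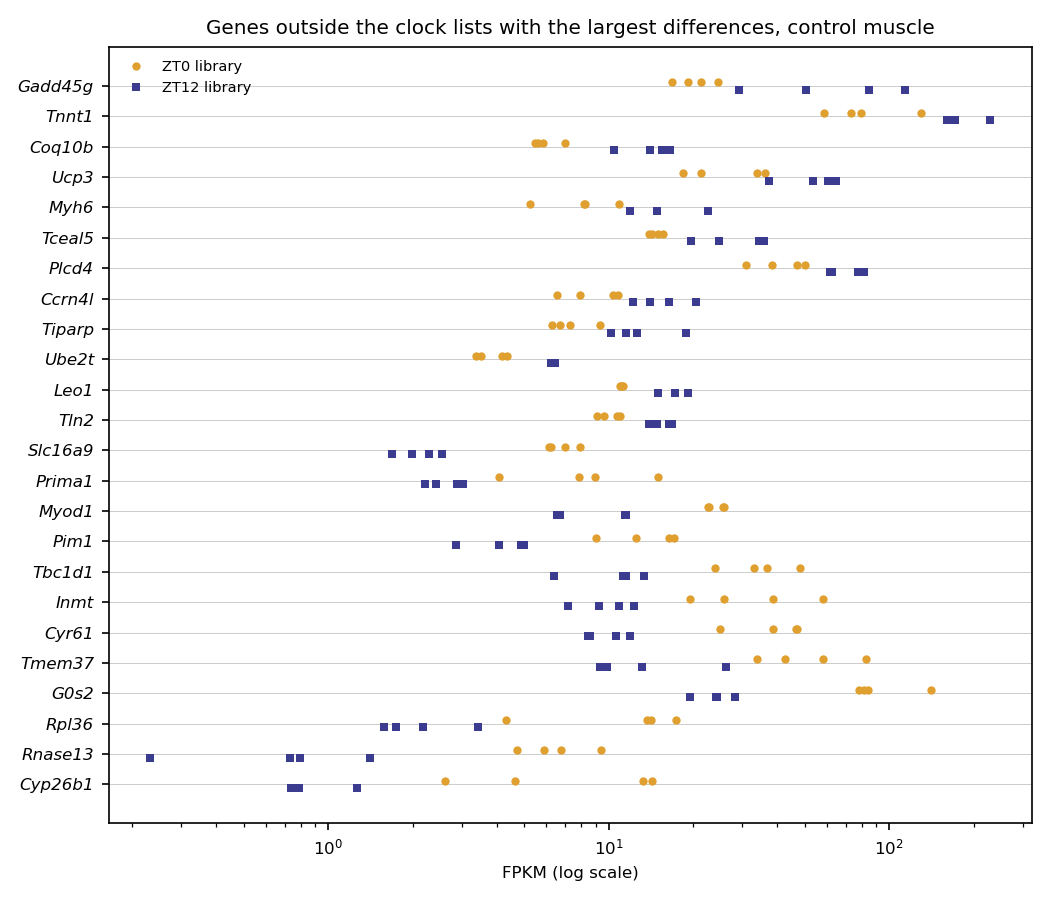
FPKM on a log scale (x axis) in each of the 8 control libraries for 12 rises and 12 falls outside the clock lists (rows). They are the largest among genes that met the naming rule, which asks for no overlap and a mean of at least 5 FPKM. Orange circles are ZT0 libraries and blue squares ZT12 libraries, and by that rule the 2 colours do not overlap in any row. The ZT0 circles of Cyp26b1 span 2.60 to 14.3 FPKM, while those of Leo1 coincide at 11.0 to 11.2 FPKM.

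Lists of genes by pathway were written for this tissue and are described by counts and medians, beside 0.952% of tested genes that rose, 5.15% that fell and a median of -0.0485. In glucose handling, 2 of the 20 insulin signalling genes fell, Tbc1d1 and Pik3r1. Pik3r1, the regulatory subunit of phosphoinositide 3-kinase and also a glucocorticoid target, was at 12.4, 17.2, 15.0 and 15.0 FPKM at ZT0 and 5.20, 8.05, 7.05 and 8.55 FPKM at ZT12. It fell 2.06-fold without overlap (limma adjusted p = 0.0102). Of 22 genes of glucose uptake and glycolysis only Slc2a1 passed. This gene, which encodes the glucose transporter GLUT1, was at 4.83, 6.42, 5.49 and 5.99 FPKM at ZT0 and 2.98, 3.53, 2.57 and 2.98 FPKM at ZT12, a 1.89-fold fall (limma adjusted p = 0.00734). Of 20 glycogen genes only Ppp1r3b passed, a targeting subunit of protein phosphatase 1, which fell from 1.94 ± 0.627 to 0.749 ± 0.293 FPKM (SD, n = 4 each, limma adjusted p = 0.0434). Its call was lost under either other scaling. The medians of these 3 lists were -0.13, -0.05 and -0.10.

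In lipid metabolism single genes moved and the lists as wholes stayed near 0. Of 26 genes of fatty acid use in fasting, 13 were higher and 13 lower at ZT12, with a median of 0.00 and Ucp3 the only one past the threshold. G0s2 was the only one of 19 genes of lipid droplets and lipolysis that passed (median -0.08). Srebf1, the master regulator of fatty acid synthesis, was the only one of the 14 genes of that pathway. It was at 45.9, 37.4, 31.5 and 39.2 FPKM at ZT0 and 29.6, 26.4, 22.2 and 25.2 FPKM at ZT12, a 1.49-fold fall (limma adjusted p = 0.0353) that did not pass after median-ratio scaling (adjusted p = 0.0524). The call was also lost with no filter on low values and held in 2 of the 8 fits without 1 library. The entry for Srebf1 spans 115592 bases against 25103 for the gene, and what the rest adds to its level was not tested. None of the 18 cholesterol genes passed. Of 12 coenzyme Q genes Coq10b alone passed. Of the 46 nuclear genes of oxidative phosphorylation 1 passed, Ndufa1, a subunit of complex I. It fell from 189 ± 14.5 to 126 ± 14.7 FPKM (SD, n = 4 each, limma adjusted p = 0.0145), while the median of the list was -0.04 (0.02 after median-ratio scaling).

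Genes of NAD salvage and the sirtuins did not pass (0 of 15, 6 higher and 9 lower). Sirt2, a cytosolic deacetylase, had the smallest p of the list, at 50.4 ± 3.33 FPKM at ZT0 and 39.9 ± 4.28 FPKM at ZT12 (SD, n = 4 each, limma adjusted p = 0.0657). Of 14 amino acid transporters, 11 were lower at ZT12 (8 after quantile normalisation), and the taurine transporter gene Slc6a6 fell from 31.0 ± 3.96 to 22.7 ± 1.87 FPKM (SD, n = 4 each, limma adjusted p = 0.0424). That call was lost under median-ratio scaling and in 7 of the 8 fits without 1 library.

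Hormone and nutrient signals gave few calls. Of 21 genes of the glucocorticoid response, Per1 rose and Pik3r1 fell, and 8 were higher and 13 lower. None of the 20 FoxO and atrophy genes passed, although 16 were lower at ZT12. Fbxo32 (atrogin-1), a ubiquitin ligase subunit of muscle atrophy, was at 167, 195, 119.9 and 205 FPKM at ZT0 and 79.7, 62.2, 88.5 and 21.5 FPKM at ZT12. The groups do not overlap and the ratio of means was 2.73, but ZT12 library 3 was far below its group and the limma adjusted p was 0.0513. None of 5 alpha-arrestin genes passed, and Arrdc3 came close, with 36.2, 39.6, 32.7 and 35.1 FPKM at ZT0 and 21.0, 28.2, 18.2 and 9.40 FPKM at ZT12 (limma adjusted p = 0.0666); again ZT12 library 3 was lowest. Of 13 mTORC1 inhibitors and targets none passed, with the smallest p for Eif4ebp1 (adjusted p = 0.220). Of 20 immediate early genes none passed either. Jun was nearest, at 43.6, 52.3, 31.4 and 35.8 FPKM at ZT0 and 24.1, 28.3, 29.7 and 19.7 FPKM at ZT12 (limma adjusted p = 0.0604).

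Of 22 tested regulators of the muscle cell itself, 4 fell and none rose. Myod1 (XLOC_018769, chr7:46376474-46379092), the myogenic transcription factor that is a known target of the clock in muscle, was at 22.6, 25.5, 22.7 and 25.7 FPKM at ZT0 and 11.6, 6.56, 11.5 and 6.72 FPKM at ZT12. The ZT0 libraries were close together, and ZT12 libraries 0 and 2 lay between them and ZT12 libraries 1 and 3. Myod1 fell 2.66-fold (log2 difference -1.36, SE 0.179, limma adjusted p = 0.00632). Mylk4, a myosin light chain kinase family member, was at 400.4, 335, 346 and 349 FPKM at ZT0 and 168, 241, 224 and 117 FPKM at ZT12 and fell 1.91-fold (limma adjusted p = 0.0313), kept in 3 of 8 fits without 1 library. The median of the 22 genes was -0.14.

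Contractile genes were mostly higher at ZT12, with few calls. Of 18 slow fibre genes, 14 were higher, with a median of 0.33, and 1 passed. That gene was Tnnt1 (XLOC_019342, chr7:4504570-4515975), the slow skeletal troponin T, at 58.7, 129.6, 72.9 and 79.5 FPKM at ZT0 and 161, 229, 169 and 172 FPKM at ZT12. The highest ZT0 library, number 1, came near the ZT12 range, and the rise was 2.14-fold (log2 difference 1.14, SE 0.222, limma adjusted p = 0.0249); the call held in 3 of 8 fits without 1 library. Of 19 fast fibre genes, 16 were higher (12 after quantile normalisation), none passed (1 rose after quantile normalisation) and the median was 0.10. The smallest p among them was that of Eno3, the muscle enolase, at 4583, 4463, 4337 and 4167 FPKM at ZT0 and 6768, 5216, 5386 and 5355 FPKM at ZT12 (limma adjusted p = 0.105). Among 19 genes that define skeletal muscle, 16 were higher (13 after quantile normalisation) and 2 passed, the giant sarcomere proteins nebulin and titin. Neb was at 345, 309, 285 and 326 FPKM at ZT0 and 437, 413, 433 and 425 FPKM at ZT12 and rose 1.35-fold (limma adjusted p = 0.0208). Ttn was at 204, 192, 169 and 213 FPKM at ZT0 and 254, 256, 250.1 and 256 FPKM at ZT12 and rose 1.31-fold (limma adjusted p = 0.0333). In both genes the 4 ZT12 libraries were close together and above all of ZT0, and without 1 library Neb passed in 3 of 8 fits and Ttn in 1. Neither passed with all 32 libraries in the fit.

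Ion channel genes of the muscle membrane gave 2 falls among 18 genes of the neuromuscular junction and ion channels. Kcnj2, the inward rectifier channel Kir2.1, was at 20.2, 25.4, 19.9 and 30.4 FPKM at ZT0 and 12.9, 11.4, 11.5 and 12.9 FPKM at ZT12. The highest ZT12 library lay far below the lowest ZT0 library, and the fall was 1.97-fold (limma adjusted p = 0.00942). Kcnj11, the pore of the ATP-sensitive potassium channel, fell 1.30-fold (limma adjusted p = 0.0356), but not past the threshold after median-ratio scaling.

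Of 30 proteasome subunits, 3 fell, Psmb1, Psmb2 and Psmc4. Psmb1 (XLOC_009157, chr17:15475721-15498276), a beta subunit of the core particle, was at 51.7, 59.3, 55.7 and 55.4 FPKM at ZT0 and 29.0, 31.6, 26.5 and 27.5 FPKM at ZT12. Its groups were tight and far apart, with a fall of 1.94-fold (log2 difference -0.93, SE 0.0749, limma adjusted p = 0.00227). Psmb2 fell 1.34-fold and Psmc4, an ATPase subunit of the cap, 1.29-fold (limma adjusted p = 0.0125 and 0.0244). The median of the list was -0.11. With all 32 libraries in the fit none of these 3 passed. Of 40 cytosolic ribosomal proteins 4 fell, among them Rpl38 (limma adjusted p = 0.0125), Rps2 (0.0167) and Rplp2 (0.0324), by 2.40-, 1.68- and 1.49-fold. These genes have many near-identical pseudogenes, and the entry for Rpl38 spans 413361 bases against 4516 for the gene, so their levels are uncertain.

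Among 18 antioxidant and growth arrest genes, Gadd45g rose and 3 fell. Sod1, the cytosolic superoxide dismutase, was at 73.1, 85.1, 67.2 and 78.5 FPKM at ZT0 and 52.7, 57.0, 55.0 and 50.8 FPKM at ZT12, a 1.41-fold fall without overlap (limma adjusted p = 0.0167). Sod1 did not pass with all 32 libraries in the fit. Gclc, the catalytic subunit of glutathione synthesis, was at 6.74, 7.27, 6.89 and 6.87 FPKM at ZT0 and 5.16, 5.52, 5.28 and 5.16 FPKM at ZT12, a fall of 1.32-fold between groups that were each narrow (limma adjusted p = 0.0150). Txnrd1, the cytosolic thioredoxin reductase, fell 1.36-fold (limma adjusted p = 0.0477), a call that did not hold under either other scaling or without any 1 library. In the unfolded protein response Ddit3 (CHOP) alone passed of 19 genes, with a 1.46-fold fall (limma adjusted p = 0.0295). The entries for Txnrd1 and Ddit3 each cover 1 other protein-coding gene of RefSeq. Of 34 heat shock genes and chaperones, 21 were higher at ZT12, with a median of 0.09. Only Hspa2 passed, with a 1.57-fold fall (limma adjusted p = 0.0299). The calls of this list depended on the scaling: 1 rose and none fell after quantile normalisation, and 3 rose and 1 fell after median-ratio scaling.

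Genes that mark the other cell types of the tissue were lower at ZT12 in several lists, and endothelial genes gave the most calls. In whole muscle, fewer cells of a type and less RNA per cell cannot be told apart. Of 20 endothelial genes, 19 were lower and 7 fell, against 5.15% of all tested genes, and the median was -0.32. After quantile normalisation or median-ratio scaling 3 fell (17 and 18 lower, medians of -0.28 and -0.26), beside 315 and 324 of all 11344 genes. Without 1 library between 2 and 5 fell. In the 4 libraries with few lymphocyte genes and in the 4 with many, the medians were -0.33 and -0.35. None of the 20 passed in either set. This count says little, since only 58 of all 11188 genes fell in the first set and 0 of 11535 passed in the second. Pecam1 (XLOC_004120, chr11:106654213-106715281), the adhesion molecule CD31 of endothelial cells, was at 45.4, 45.0, 44.8 and 43.4 FPKM at ZT0 and 31.1, 31.2, 31.1 and 33.1 FPKM at ZT12. Both groups were narrow and far apart, and Pecam1 fell 1.41-fold (log2 difference -0.48, SE 0.0554, limma adjusted p = 0.00441). Aqp1, the water channel of capillaries, was at 286, 266, 241 and 283 FPKM at ZT0 and 173, 189, 174 and 159 FPKM at ZT12, a 1.55-fold fall (limma adjusted p = 0.00734). Cldn5, a claudin of endothelial tight junctions, was at 27.0, 24.4, 24.3 and 22.6 FPKM at ZT0 and 11.3, 7.95, 13.1 and 17.0 FPKM at ZT12, a 1.99-fold fall (limma adjusted p = 0.0220). It passed in 5 of the 8 fits without 1 library. The summed level of the 20 genes was 567.9 to 628.5 FPKM at ZT0 and 414.3 to 443.9 FPKM at ZT12. This sum does not overlap between the times, and none of the 20 genes is at 0 in any library. Aqp1 made up a large part of it, on average 269 of 602 FPKM at ZT0 and 174 of 433 FPKM at ZT12.

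Fibroblast and matrix genes had 4 falls among 23, Dcn, Mmp2, Gsn and Lum, and a median of -0.26. Dcn, the small proteoglycan decorin, was at 714, 523, 708 and 534 FPKM at ZT0 and 236, 298, 307 and 352 FPKM at ZT12, without overlap (2.08-fold, limma adjusted p = 0.00980). Gsn, the actin-severing protein gelsolin, was at 771, 776, 803 and 788 FPKM at ZT0 and 382, 464, 512 and 517 FPKM at ZT12 (1.67-fold, limma adjusted p = 0.00860). Mmp2, a gelatinase, fell 1.91-fold (limma adjusted p = 0.0125). The collagen genes Col1a1 and Col3a1 did not pass, with log2 differences of -0.23 and 0.38. Summed over the list, the level was 2208 to 3535 FPKM at ZT0 and 1400.2 to 2982 FPKM at ZT12, with ZT12 library 3 inside the ZT0 range.

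All 8 tendon genes were lower at ZT12 with a median of -1.01, and none passed. Fmod, the tendon proteoglycan fibromodulin, was at 241, 73.4, 213 and 145 FPKM at ZT0 and 34.1, 75.6, 35.7 and 165 FPKM at ZT12 (limma adjusted p = 0.189). The libraries differed widely within each time: the summed tendon level was 486.6, 156.0, 467.4 and 296.5 FPKM in ZT0 libraries 0 to 3 and 81.5, 168.0, 87.4 and 352.5 FPKM in those of ZT12. In the 4 libraries with few lymphocyte genes, a set chosen after the data were seen, the 8 had a median of -1.98. There 6 of them fell, beside 58 of all 11188 genes tested in that set. In the other 4 libraries the tendon genes had a median of -0.14, and 0 of all 11535 tested genes passed. With the mean tendon level as a covariate, 430 genes passed in place of 692, 84 higher and 346 lower. Per1 and Gadd45g did not pass in that fit (adjusted p = 0.0824 and 0.134), and Ciart and Dbp did (0.0330 and 0.00836).

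The other cell types gave single calls or none. All 13 macrophage and neutrophil genes were lower at ZT12 (median -0.48) and 1 passed, Cd14, a lipopolysaccharide co-receptor (limma adjusted p = 0.0466), which did not pass after median-ratio scaling. Their summed level overlapped, with 171.9 to 405.7 FPKM at ZT0 and 121.9 to 258.3 FPKM at ZT12. All 8 Schwann cell genes were lower (7 under either other scaling, median -0.38), and 1 passed, the myelin gene Pmp22 (limma adjusted p = 0.0224). Its entry covers 2 other protein-coding genes. Pdgfrb, a receptor of pericytes, was the only one of 13 genes of smooth muscle and pericytes that passed (limma adjusted p = 0.0497), and not after quantile normalisation or median-ratio scaling. None of 18 lymphocyte genes, 17 adipocyte genes or 7 satellite cell genes passed. Chodl, the satellite cell gene with the smallest p, was at 8.59, 5.83, 8.46 and 7.89 FPKM at ZT0 and 4.60, 4.38, 3.26 and 7.13 FPKM at ZT12 (limma adjusted p = 0.0965). Of the lymphocyte genes, 16 were higher at ZT12 (median 0.20). Adipoq, the adipokine that defines fat cells, ranged from 23.5 to 42.7 FPKM at ZT0 and from 11.6 to 45.9 FPKM at ZT12.

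**Figure D4:**
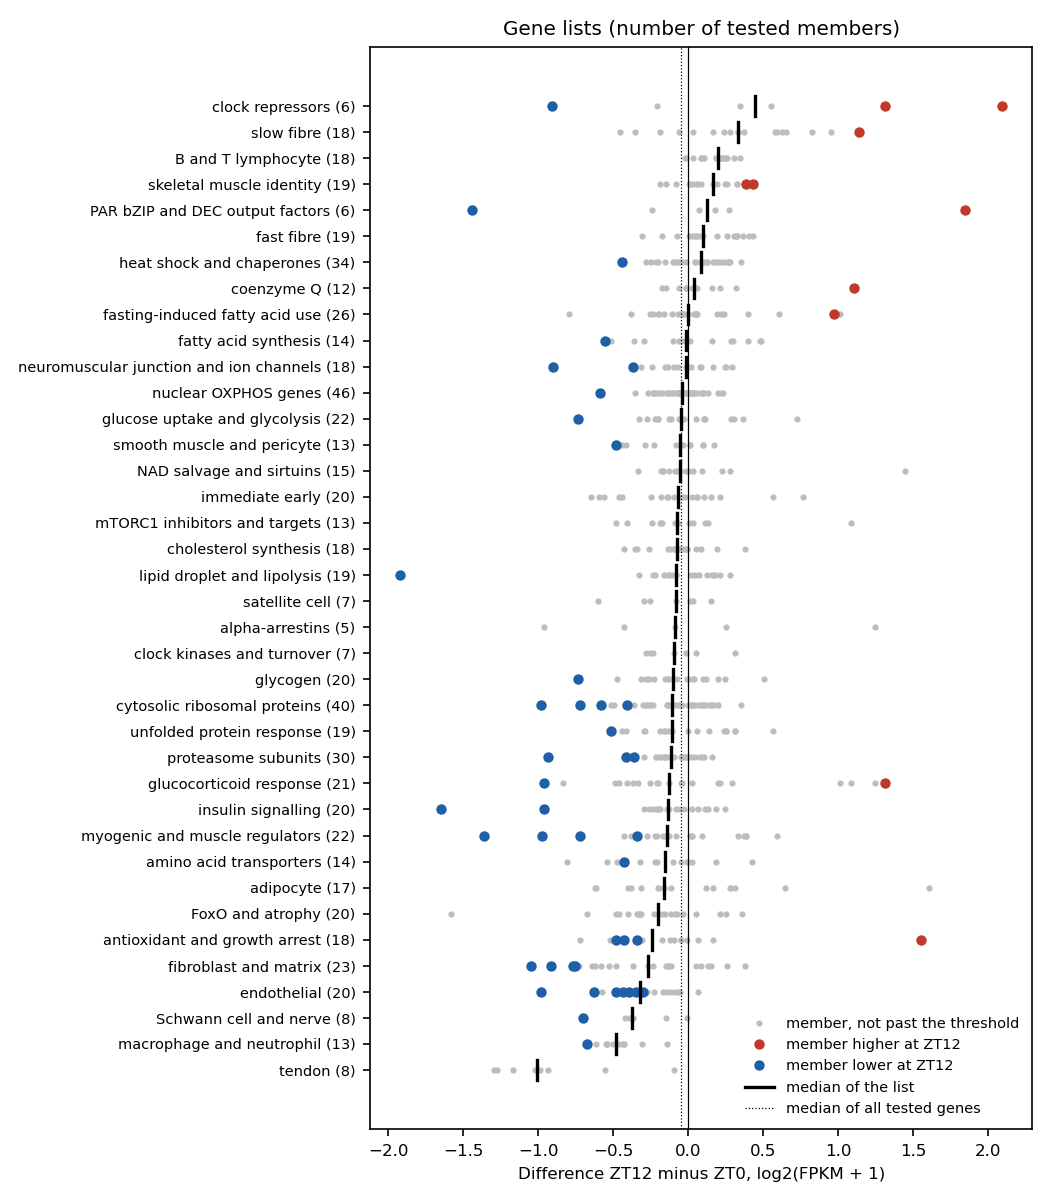
Difference between ZT12 and ZT0 in log2(FPKM + 1) units (x axis) for each tested member of the lists with 5 or more tested genes (rows, number of tested members in brackets). Grey points did not pass, red points rose and blue points fell; the black bar is the median of the list and the dotted line the median of all tested genes (-0.0485). The endothelial row holds 7 blue points and the tendon row none, although its median of -1.01 is the lowest.

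How far the count of genes that passed depended on cell makeup and on single libraries was examined in further fits. Those with lymphocyte and adipocyte covariates and those without 1 library were planned, and the others were chosen after the data were seen. The planned covariates, the mean levels of the lymphocyte and adipocyte lists, gave 760 genes, 118 higher and 642 lower. With the mean levels of the endothelial and of the fibroblast list as covariates, 0 genes passed with limma, 1033 had an unadjusted p under 0.05, and the smallest adjusted p was 0.301. The summed endothelial FPKM does not overlap between ZT0 and ZT12. The covariate is instead a mean of log2 levels, and its overlap between the times was not examined. As far as it follows time, the 2 cannot be told apart in 8 libraries. In the 4 libraries with few lymphocyte genes (2 per time), 67 genes passed, 9 higher and 58 lower. Among the clock genes there, 2 repressors, 1 REV-ERB receptor and 1 output factor passed, all higher at ZT12. In the 4 libraries with many lymphocyte genes 0 passed with limma, and 1103 had an unadjusted p under 0.05. The log2 differences of Dbp were 1.80 and 1.89 in these 2 sets, and those of Ciart 2.28 and 1.90. Leaving out 1 library at a time gave between 195 genes (without ZT0 library 3) and 737 (without ZT12 library 3). Of the 67 named genes that passed, 32 passed in every such fit in which they were tested. Among the clock genes these were Dbp, Nr1d1, Arntl and Ciart, and outside them G0s2, Cyr61, Myod1, Tbc1d1, Coq10b, Pecam1 and Psmb1 belonged to this set. Others passed in fewer of the 8 fits: Cry1 in 7, Pmp22 and Psmc4 in 4, and Ddit3 and Rpl36 in 3. Hspa2, Rplp2, Kcnj11 and Ppp1r3b passed in 2, and Cd14 and Pdgfrb in 1. Ciart was tested in only 4 of these 8 fits. It met the filter of at least 1 FPKM through the ZT12 libraries alone, so it was never tested without a ZT12 library.

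The same contrast in the 8 mutant libraries of ZT0 and ZT12, which share no sample with the controls, gave 19 genes (0.167% of 11349 tested), 8 higher (0.0705%) and 11 lower (0.0969%) at ZT12. Of these, 15 passed in controls as well and in the same direction, which is 2.17% of the control calls and 78.9% of the mutant calls. They were the clock genes Arntl, Ciart, Dbp, Nfil3, Nr1d1, Nr1d2 and Per1, and Coq10b, G0s2, Slc16a9, Tbc1d1 and Ypel2. The other 3, Rassf9, Dyrk2 and Slc25a25, fall outside the naming rule and were chosen after their values were seen. Their log2 differences in controls were -1.40, -0.76 and 1.85. In mutants, Dbp went from 18.1 to 91.4 FPKM (means of 4, limma adjusted p = 0.0284) and G0s2 from 130.3 to 32.5 FPKM (adjusted p = 0.00937). Myod1 was at 26.2 and 11.9 FPKM and did not pass (adjusted p = 0.352). Gadd45g, at 34.5 and 57.7 FPKM, did not pass either.

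No gene passed the test of a difference between genotypes in its change from ZT0 to ZT12. The interaction test in limma over 16 libraries gave 0 of 11340 genes (0%), with 642 at an unadjusted p under 0.05 and a smallest adjusted p of 0.461. So a gene that passed in controls and not in mutants is not shown to differ between them. Of the 108 genes that rose in controls, 69 (63.9%) were also higher at ZT12 in mutants, where 53.7% of all genes tested in controls were higher. Of 578 that fell and could be compared, 422 (73%) were also lower. The median difference in mutants was 0.06 log2 units for the first set and -0.19 for the second, against 0.01 for all genes. Across 11200 genes the 2 differences correlated with r = 0.41, a description of these 16 libraries in which genes are not independent. The endothelial genes had a median of -0.24 in mutants (16 of 20 lower) and the tendon genes of -0.79 (7 of 8 lower). Lymphocyte genes had a median of 0.96 in mutants (17 higher, 0 lower), and their part in these values was not tested.

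**Figure D5:**
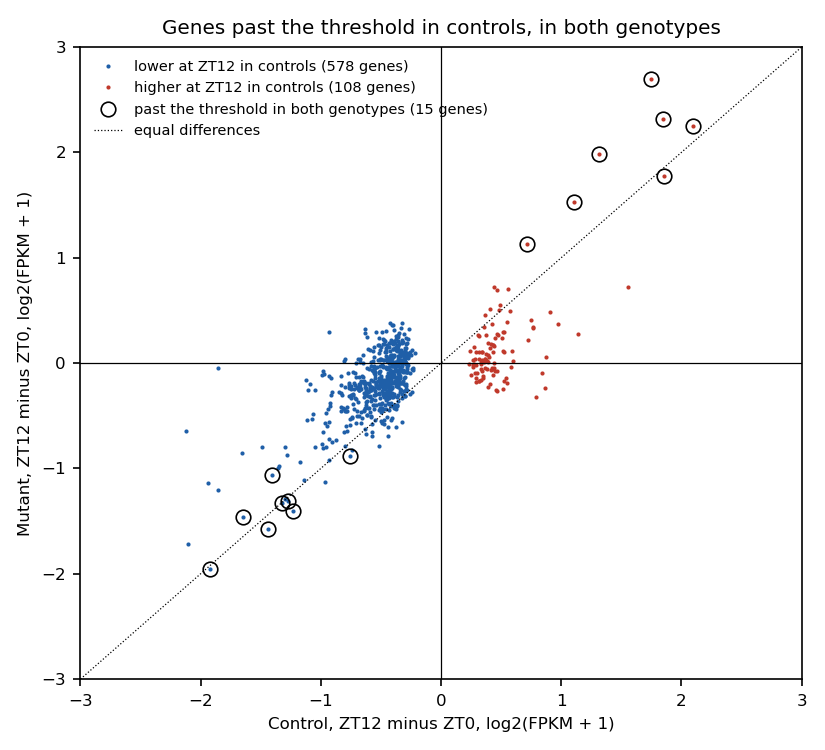
Difference between ZT12 and ZT0 in log2(FPKM + 1) units in mutants (y axis) against the same difference in controls (x axis), for the 686 genes past the threshold in controls that were measured in both. Circles mark the 15 genes picked because they passed the threshold in both genotypes in the same direction. Some lie near the dotted line of equal differences, such as G0s2 (-1.92 in controls and -1.96 in mutants). Others lie off it, such as Nr1d1 (1.75 in controls and 2.69 in mutants). The medians in mutants were 0.06 for the red points, which rose in controls, and -0.19 for the blue points, which fell.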

How the data were processed

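RNA was sequenced from whole gastrocnemius muscle, and 1 table holds the FPKM values that the authors deposited for all 32 libraries. The genome build is mm10 per the submitters' processing notes. The aligner, the counter and the use of strand are not given in the sources used here. Columns were mapped by genotype and time. Their numbers 0 to 3 name no mouse, and replicates could not be paired.

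Genes with at least 1 FPKM in 4 or more of the 8 control libraries were tested as log2(FPKM + 1), so folds of low genes are understated on that scale. "Fold" is the ratio of mean FPKM. An exact 0 was treated as missing where the median of the gene's values above 0 was at least 10 FPKM. At least 2 values at each time were also needed. The test was limma (3.58.1, R 4.3.3) with a trended prior, 2-sided, with Benjamini-Hochberg adjustment over all tested genes and a threshold of 0.05. It was tested on simulated data. Mutants and the genotype interaction were fitted likewise.

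The text names every tested clock gene, the 12 largest rises and 12 largest falls that passed without overlap and reached a mean of 5 FPKM, and up to 3 genes of each list by p. Of these genes, 4 are not reported here. The comparison, the lists and the rules were chosen with earlier results of these data known. Alternatives covered the pseudocount, the filter, zeros, scaling, the libraries in the fit and each library left out. The other 4 fits on cell makeup and lymphocyte level were chosen after seeing the data. Table starts count from 0 and are printed plus 1. Promoters come from RefSeq (GRCm38.p6).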

Additional observations from a re-analysis of the deposited data

Results flagged for a closer look

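In 188 groups of 4 libraries (the reported genes at ZT0 and at ZT12), 8 (4.26%) held a library that stood apart by Dixon's criterion, and chance gives about 1 in 20. At ZT0 these were Coq7 in library 2 (29.79 FPKM, others 36.68 to 37.86), G0s2 in library 3 (140.5 FPKM, others 77.89 to 83.87) and Ypel2 in library 1 (6.629 FPKM, others 8.151 to 8.411). At ZT12 they were Usp2 in library 1 (53.85 FPKM, others 37.13 to 38.95), Cyp26b1 in library 2 (1.266 FPKM, others 0.7363 to 0.7882) and Eno3 in library 0 (6768 FPKM, others 5216 to 5386). Library 3 of ZT12 stood apart for Csnk1d (19.55 FPKM, others 23.2 to 23.9) and Pecam1 (33.07 FPKM, others 31.12 to 31.2).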

How the results depend on the processing

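The count of 692 genes became 385 with no filter on low values, 1047 with the 16 control libraries in the fit, 442 with all 32, and 195 to 737 without 1 library (with limma in each case). The planned lymphocyte and adipocyte covariates gave 760. Of the fits chosen after seeing the data, the endothelial and fibroblast covariates gave 0, the tendon covariate 430, the 4 libraries with few lymphocyte genes 67 and the 4 with many 0. With the endothelial and fibroblast covariates the log2 difference of Tiparp turned to -0.15 (adjusted p = 0.902) and that of Myh6 to -0.13 (adjusted p = 0.941). The cause was not tested in any of these, and the last 2 fits also held fewer libraries. The 19 genes of the mutants became 10 with a pseudocount of 0.1, 5 with no filter and 2 to 9 without 1 library. The interaction gave 0 genes in every fit, but how near it came varied. In the main fit 642 genes had an unadjusted p under 0.05, and the smallest limma adjusted p was 0.461. Without mutant ZT0 library 2 these values were 1818 and 0.0981, and with all 32 libraries 1003 and 0.0990. Of the 67 named genes that passed, 35 were lost without at least 1 library and 11 under at least 1 of the 2 other scalings. With no filter 48 of the 67 passed, with the 16 control libraries 63 and with all 32 libraries 48. None of these 67 changed direction under an alternative planned at the start. No paired analysis was possible because the labels give no replicate number and the column numbers name no mouse. Depth is known only relative between libraries, so counting error of low genes could not be given.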
